A study of Mus musculus with 8 samples.

Results

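Interferon-stimulated genes are the transcripts that cells switch on when interferon signals through its receptor. A list of 38 such genes, with both chains of the type I interferon receptor among them, was followed in virus-specific mouse CD8 T cells that lacked the transcriptional repressor Blimp-1. Members were matched by the gene symbols of the array annotation, and each gene was represented by its brightest probe, the one with the highest mean over all arrays. In all, 32 of the 38 genes had a probe, out of 14739 genes with a probe, and 7 of the 32 had several. No probe was matched for Mx1, Mx2, Ifi44, Xaf1, Trim25 or Parp14, which were not analysed here. The list was not chosen by a measured difference, but it was chosen with earlier results of these data known.

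Type I interferons bind a receptor made of Ifnar1 and Ifnar2. Kinases on the receptor then activate transcription factors, Stat2 among them, which join Irf9 and bind the interferon-stimulated response element in the promoters of their targets. Interferon gamma acts through another receptor, and it induces above all a family of GTPases that act on vacuoles holding pathogens. In T cells, type I interferon is known as a signal that reaches the cell early in a viral infection and supports expansion and effector functions. Blimp-1 is known to bind DNA motifs that overlap those of interferon regulatory factors.

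The samples were CD8 T cells that bound class I tetramers carrying peptides of lymphocytic choriomeningitis virus, sorted from spleen 8 days after infection with 200000 plaque-forming units of the Armstrong strain. The CKO group had floxed Blimp-1 alleles and a Cre recombinase driven by granzyme B (Blimp-1flox/flox x GranzymeB-cre+), so that deletion is tied to cells that express granzyme B. The WT group were their wildtype littermates, and whether these carried floxed alleles or Cre is not given in the labels. Each group held 4 samples with 1 array each, described as independent but not as single animals, and a p-value here speaks only of how far these samples scatter, which can be technical in part.

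Values are log2 signals, from 5.33 to 15.15 over all arrays, with a median of 6.15, and a value near 6 cannot be told from a probe that reports nothing. Prdm1, which encodes Blimp-1, had 1 probe that fell by 1.28 in CKO and another that rose by 3.20 (limma adjusted p = 0.00121 and 4.43e-06). The groups did not overlap on either probe, and the labels do not place either probe inside or outside the deleted exons. The T cell gene Cd8b1 stood at 14.14 to 14.71 on every array. Signal for 18S ribosomal RNA was 11.20 in WT2 and 10.80 in CKO2, below the 12.47 to 12.99 of the others, and the Y-linked gene Eif2s3y was bright in WT1 and CKO1 alone, at 10.51 and 10.92.

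Between the groups, 2 interferon-stimulated genes were higher in CKO cells and none was lower. These were also the 2 members whose CKO values all exceeded the WT values, against 9.19% of all genes, and for 0 members were they all below, against 6.49%. They were Usp18, the protease that removes Isg15 from proteins and dampens signalling at the receptor, and Ifnar2, a chain of that receptor. A gene was tested if its probe averaged more than 6.12 across all arrays, which is the middle value among probes. That left 25 members, each with a mean above this level in WT and in CKO alike, and a call needed a Benjamini-Hochberg adjusted p under 0.05 by limma over all probes tested. The 2 calls among 25 members compare with 4.73% of all 8095 genes tested that were higher in CKO, and the 0 members that were lower with 3.04%. At an unadjusted p under 0.05, 9 of 25 members passed, and 1884 of 8095 genes tested did. The difference, CKO minus WT, was positive for 19 members and negative for 6. It was thus positive for 76.0% of the members, against 47.3% of all genes tested. Its median was 0.36 log2 over the members tested against -0.01 over all genes tested. With the replicate number as a block, 4 members were higher, Usp18, Ifnar2, Oas3 and Eif2ak2, against 6.87% of all genes, and none was lower against 5.69%. Without the level filter the 2 calls among 32 members remained Usp18 and Ifnar2, against 2.59% of all genes higher, and 0 were lower, against 1.57%.

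**Figure D1:**
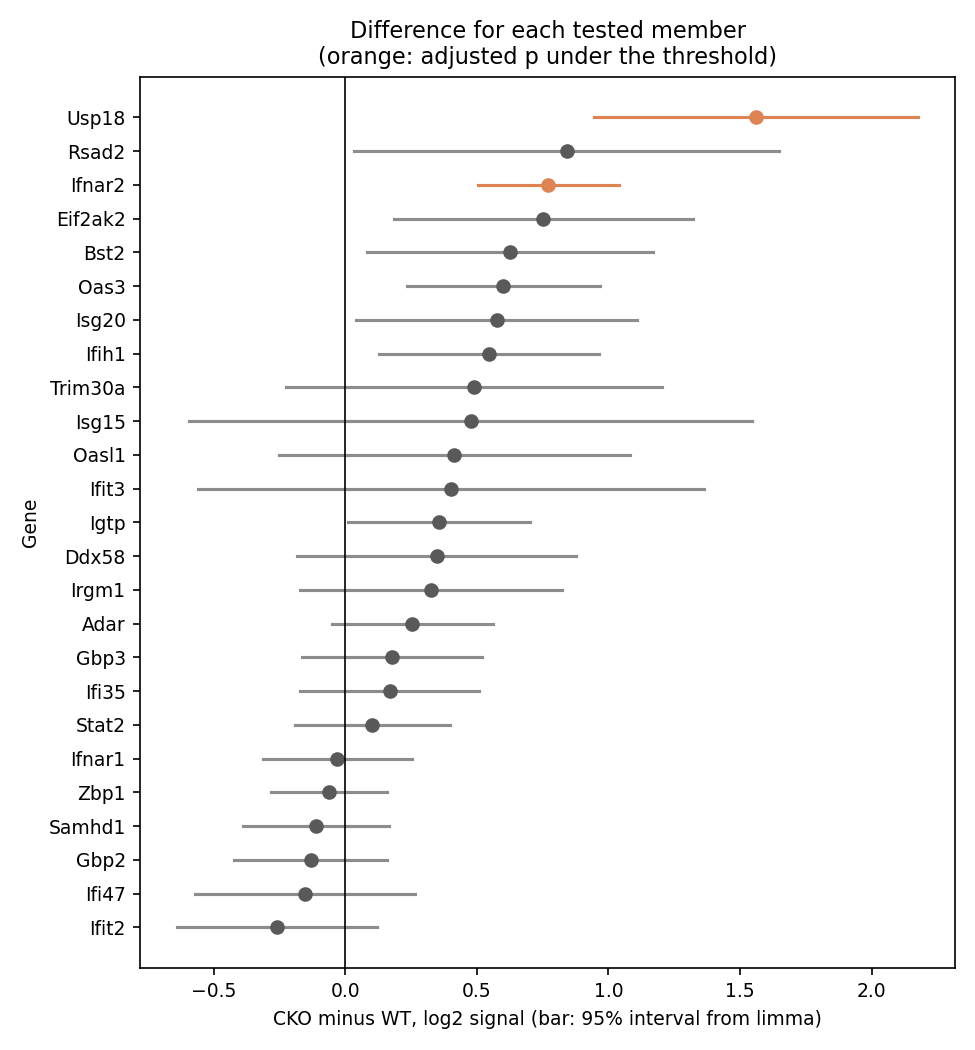
CKO minus WT difference in log2 signal for the 25 interferon-stimulated genes tested, with 95% intervals from limma. Usp18 at 1.56 and Ifnar2 at 0.77, in orange, passed the adjusted threshold, and the widest intervals were those of Isg15 and Ifit3.

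For these genes the CKO arrays differed among themselves more than the WT arrays did. Among the members tested, 23 of 25 had a larger SD in CKO than in WT, which was so for 47.7% of all genes tested, and the median SD was 0.38 in CKO and 0.19 in WT. CKO3 and CKO4 were the 2 highest of the 8 arrays for 14 of the 25 members, against 7.55% of all genes tested. These 14 were Isg15, Isg20, Ifit3, Oasl1, Stat2, Rsad2, Usp18, Ddx58, Ifih1, Bst2, Ifi35, Trim30a, Eif2ak2 and Adar. For 0 members were CKO3 and CKO4 the 2 lowest arrays, a pattern found in 12.4% of all genes, and for 0 were CKO1 and CKO2 the 2 highest, a pattern found in 4.27%. Without the level filter, and over genes with a value on every array, CKO3 and CKO4 were the 2 highest for 16 of 31 members, against 5.8% of genes. That these samples may differ was known from earlier results of these data, so these counts are a description and no test was made between CKO samples.

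Relative to the WT mean of each gene, the median over the 25 members was 0.04, 0.05, -0.12 and -0.01 in WT1 to WT4. In CKO1 it was -0.002 and in CKO2 it was 0.11, close to the WT arrays. In CKO3 it was 0.53 and in CKO4 it was 0.85, while the median over all genes tested lay between -0.04 and 0.04 on every array. CKO1 was above every WT array for 3 members, CKO2 for 8, CKO3 for 16 and CKO4 for 21, against 23.5%, 30.1%, 24.5% and 23.2% of all genes tested. CKO1 was below every WT array for 7 members, CKO2 for 5, CKO3 for 4 and CKO4 for 1, against 23.6%, 20.2%, 28.4% and 30.7% of all genes. Set against the WT sample of the same number, CKO1 was higher for 10 members, CKO2 for 12, CKO3 for 21 and CKO4 for 21, against 48.6%, 50.3%, 48.2% and 47.0% of all genes.

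**Figure D2:**
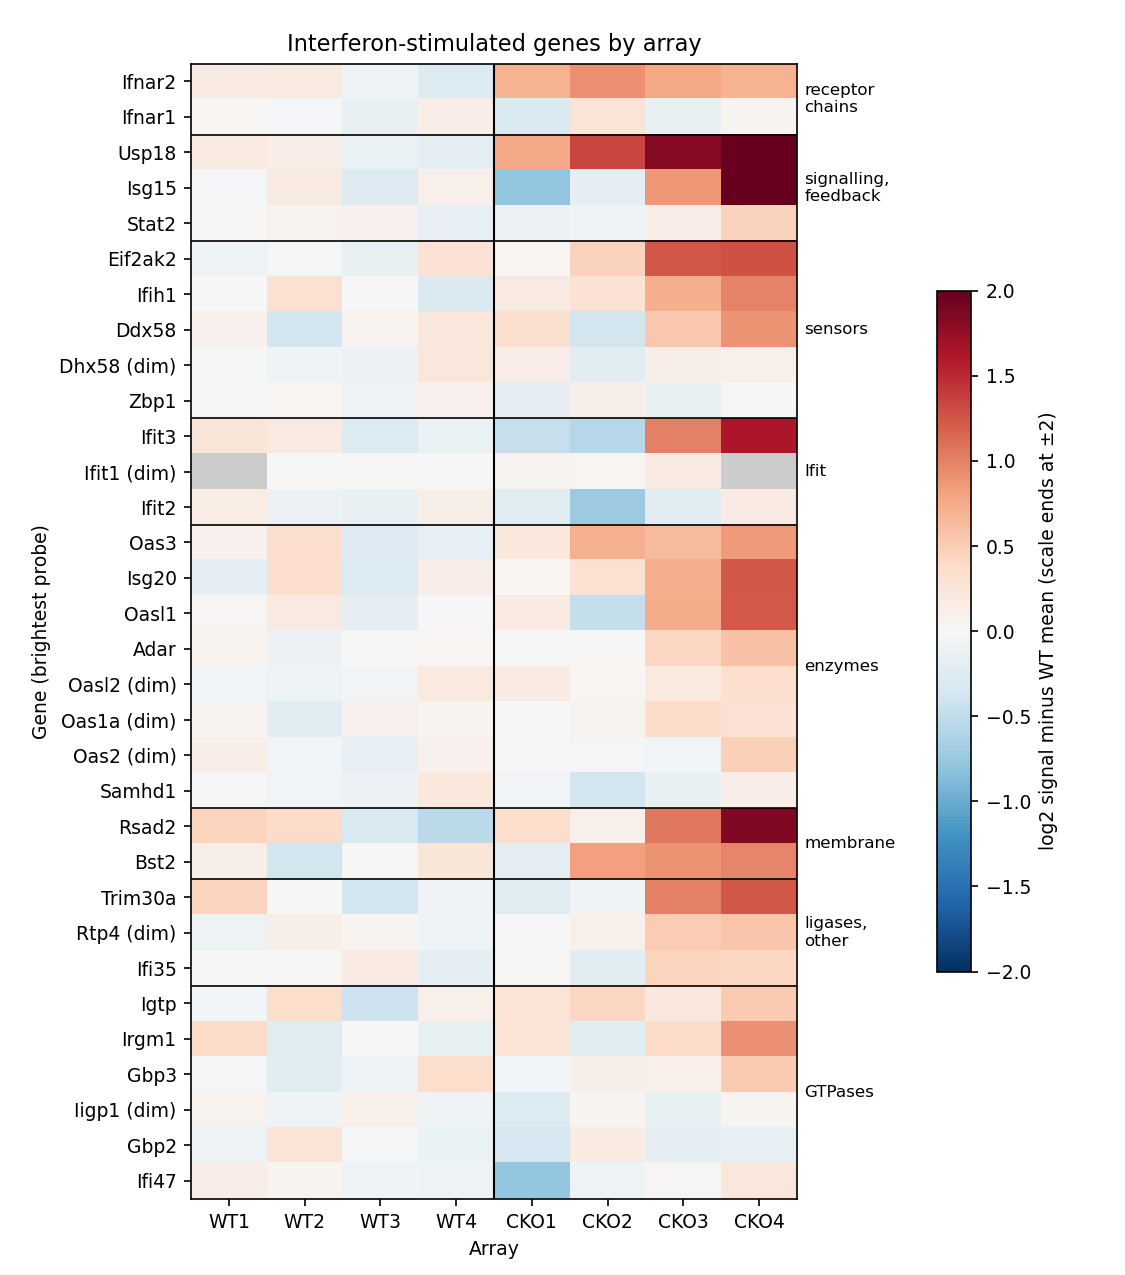
Log2 signal minus the WT mean for the 32 interferon-stimulated genes with a probe, by array, in groups by role. Red is above and blue below the WT mean, the scale ends at 2 in either direction, grey cells have no value, and genes marked dim were below the level tested. Of the 25 genes tested, 20 are above the WT mean in CKO3 and 23 in CKO4, against 3717 and 3555 of all 8095 genes tested. Among those tested, Ifnar2, Usp18, Isg20, Oas3, Rsad2, Ifih1, Igtp and Eif2ak2 are above the WT mean in all 4 CKO columns. So are the dim genes Oasl2, Oas1a and Rtp4.

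**Figure D3:**
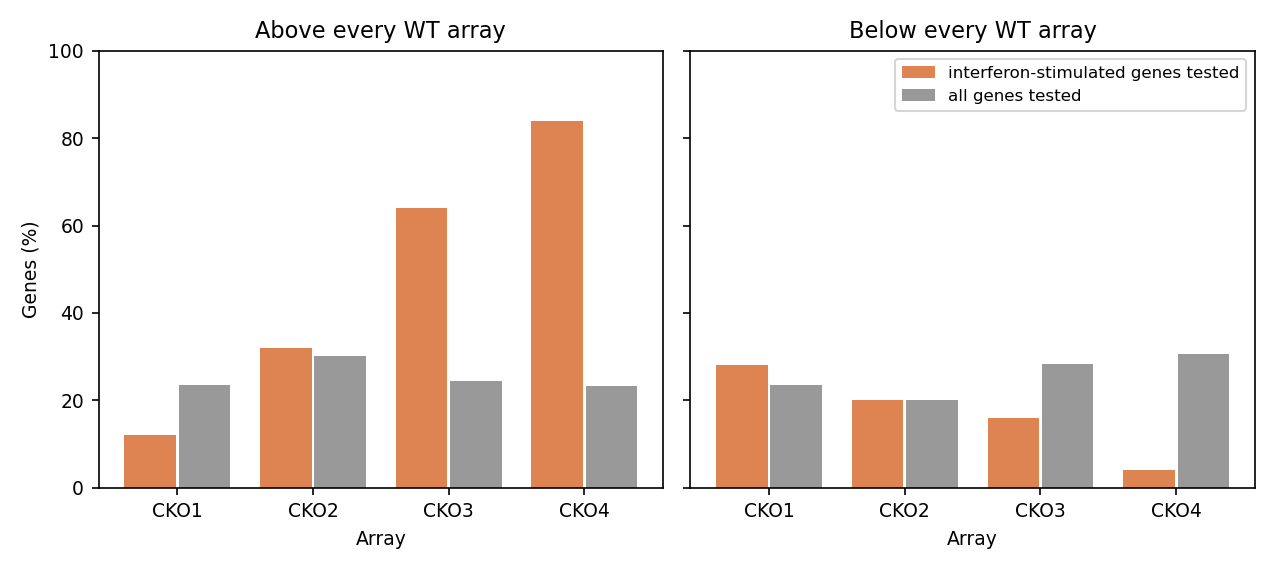
Share of genes whose signal on a CKO array lay above (left) or below (right) all 4 WT arrays, for the 25 interferon-stimulated genes tested and for all 8095 genes tested. The share above is 64.0% in CKO3 and 84.0% in CKO4 among the members, and 12% and 32% in CKO1 and CKO2.

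With CKO3 and CKO4 left out, the median difference over the members was -0.01. Usp18 remained higher by 1.05 (limma adjusted p = 0.0423), 1 of 25 members against 1.04% of all genes. Ifnar2 was at 0.80 with an adjusted p of 0.0634. No member was lower, against 0.432% of all genes. In samples numbered 1 and 2 alone, 0 members passed in either direction, against 0.136% of all genes higher and 0.0988% lower, and 2 samples a group leave little power. In samples numbered 3 and 4 alone, also 2 a group, 15 members were higher, against 6.37% of all genes, and none was lower, against 5.03%. This split by number was chosen with the pattern known, so the 15 calls follow in part from that choice and are no support for the pattern.

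Of the receptor chains, Ifnar2 was the one that rose. Its values in WT1 to WT4 were 7.47, 7.48, 7.22 and 7.03, and in CKO1 to CKO4 they were 7.99, 8.22, 8.08 and 8.00. The groups did not overlap, and the 4 CKO samples lay close together, with CKO3 and CKO4 no higher than CKO2. The mean rose from 7.30 ± 0.22 to 8.07 ± 0.11 (SD, n = 4 each), by 0.77 log2 or 1.71-fold (SE 0.12, limma adjusted p = 0.00526). A second, dimmer Ifnar2 probe, between 5.96 and 6.26 in WT and between 6.22 and 6.66 in CKO, differed by 0.33 and did not pass (adjusted p = 0.192). Ifnar1, the other chain, stood between 6.06 and 6.34 in WT and between 5.91 and 6.46 in CKO, close to the level of dim probes. Its difference was -0.03, with a 95% interval from -0.31 to 0.25 (adjusted p = 0.931).

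Usp18 was the member with the largest difference. Its values in WT1 to WT4 were 8.37, 8.33, 8.07 and 8.02, and in CKO1 to CKO4 they were 8.95, 9.53, 10.02 and 10.52. Every CKO sample was above every WT sample, and CKO3 and CKO4 were the highest. The mean rose from 8.20 ± 0.18 to 9.76 ± 0.67 (SD, n = 4 each), by 1.56 log2 or 2.95-fold (SE 0.28, limma adjusted p = 0.00936). Isg15, the ubiquitin-like protein that Usp18 removes, was at 8.49, 8.69, 8.25 and 8.60 in WT and at 7.72, 8.33, 9.38 and 10.50 in CKO. CKO1 was thus below all WT samples while CKO3 and CKO4 were above them. Its difference of 0.48 had a 95% interval from -0.59 to 1.55 (adjusted p = 0.654). Stat2, which carries the signal from the receptor, was at 6.96 to 7.21 in WT and at 7.02, 7.06, 7.26 and 7.59 in CKO (difference 0.10, adjusted p = 0.736).

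**Figure D4:**
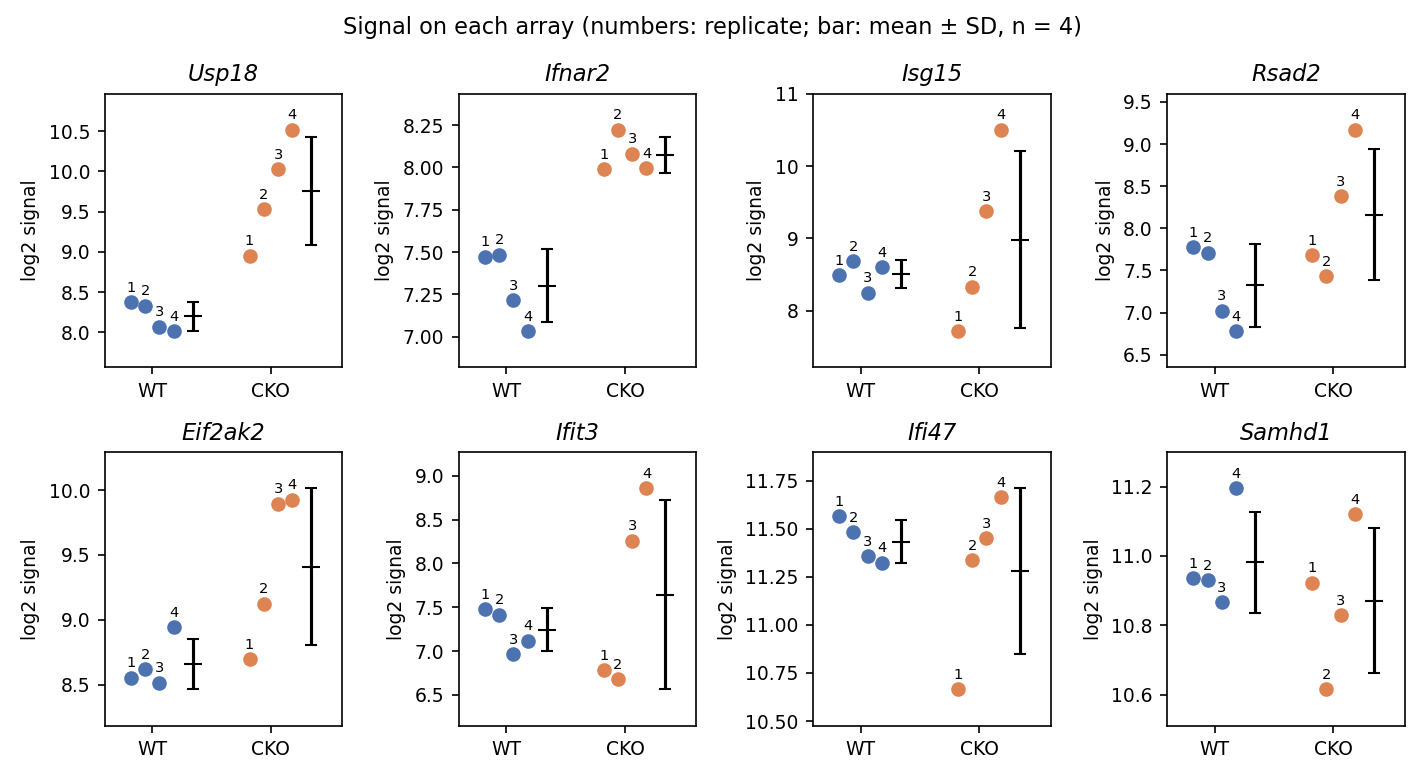
Log2 signal on each array for 8 interferon-stimulated genes, with the replicate number beside each point and the mean ± SD of the 4 samples as a black bar. Usp18 and Ifnar2 show no overlap of the groups. Isg15, Rsad2, Eif2ak2 and Ifit3 are highest in CKO3 and CKO4, and Ifi47 and Samhd1 overlap throughout.

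Of 5 sensors of nucleic acid, 4 were tested, and none passed without the block. Eif2ak2, the kinase PKR that halts translation when it binds double-stranded RNA, was at 8.55, 8.62, 8.52 and 8.94 in WT and at 8.70, 9.12, 9.90 and 9.93 in CKO. CKO1 fell within the WT range and the other CKO samples lay above it. The difference was 0.75 or 1.68-fold (SE 0.26, adjusted p = 0.118), and with the replicate number as a block it passed (adjusted p = 0.032), with CKO higher in all 4 same-numbered pairs. Ddx58, the RNA helicase RIG-I, was at 7.32, 6.86, 7.31 and 7.46 in WT and at 7.56, 6.88, 7.77 and 8.14 in CKO (difference 0.35, adjusted p = 0.478). In the same pairs CKO was always the higher, by as little as 0.02 in pair 2. Ifih1, the related helicase MDA5, chosen after its values were seen, went from 7.10 ± 0.24 to 7.64 ± 0.38 (difference 0.55, adjusted p = 0.122). Zbp1, a sensor of left-handed nucleic acid that can start cell death, did not follow this pattern, between 6.49 and 6.68 in WT and between 6.39 and 6.70 in CKO (difference -0.06, 95% interval -0.28 to 0.16). Dhx58, the third helicase of the family, was dim in both groups.

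Ifit proteins bind viral RNA and block its translation. Ifit3 was at 7.48, 7.42, 6.96 and 7.12 in WT and at 6.78, 6.68, 8.26 and 8.86 in CKO. CKO1 and CKO2 lay below all WT samples and CKO3 and CKO4 above them, and all 3 of its probes had these last arrays highest. The difference of 0.40 had an interval from -0.56 to 1.36 (adjusted p = 0.68). Ifit2, the brighter gene on its own probe, was at 9.35, 9.07, 9.05 and 9.31 in WT and at 8.94, 8.46, 8.98 and 9.35 in CKO, so that CKO1 to CKO3 lay below all WT samples. Its difference was -0.26 (95% interval -0.64 to 0.12, adjusted p = 0.46). Ifit1 was dim, with no value on WT1 or CKO4. Ifit genes are close relatives, and how far their probes cross-react was not tested.

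Among 8 enzymes that act on RNA and nucleotides, 5 were tested and none passed without the block. Oas3, an oligoadenylate synthetase that activates an RNA-degrading enzyme when it meets double-stranded RNA, went from 6.93, 7.18, 6.59 and 6.69 in WT to 7.06, 7.56, 7.48 and 7.69 in CKO. Apart from CKO1, which lay below WT2, every CKO sample was above the WT range. The difference was 0.60 or 1.52-fold (SE 0.17, adjusted p = 0.0593), and with the block the adjusted p was 0.0365. Without CKO1 it was 0.0245 and without WT2 it was 0.0321. Adar, which edits adenosine in double-stranded RNA, was at 8.24 to 8.42 in WT and at 8.35, 8.38, 8.76 and 8.93 in CKO (difference 0.25, adjusted p = 0.346). Isg20, an exonuclease, and Oasl1, a relative of the synthetases, had differences of 0.58 and 0.41 and were likewise highest in CKO3 and CKO4. Samhd1, which depletes deoxynucleotides, was at 10.94, 10.93, 10.87 and 11.20 in WT and at 10.92, 10.61, 10.83 and 11.12 in CKO, with overlapping groups (difference -0.11, 95% interval -0.39 to 0.17). Oas1a, Oas2 and Oasl2 were dim. Oas genes have near-identical copies, so the gene behind a probe is uncertain.

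Both membrane effectors with a probe had positive differences that did not pass. Bst2, tetherin, which holds budding virus at the cell surface, was at 10.48, 10.003, 10.39 and 10.60 in WT and at 10.18, 11.18, 11.27 and 11.34 in CKO. All CKO samples but CKO1 lay above the WT range, the difference was 0.63 (adjusted p = 0.173), and without CKO1 it was 0.90 and passed (adjusted p = 0.00957). Without that sample 5 members were higher, against 4.13% of all genes, and without WT2 there were 3, against 4.19%. None was lower in either case, against 2.52% and 2.59%. Rsad2, viperin, which makes a nucleotide that ends viral RNA chains, was at 7.77, 7.71, 7.02 and 6.78 in WT and at 7.68, 7.43, 8.38 and 9.17 in CKO. Samples numbered 1 and 2 were alike in the groups, at -0.10 and -0.28 for CKO minus WT, while pairs 3 and 4 differed by 1.36 and 2.39. Over all samples the difference was 0.84 (95% interval 0.03 to 1.65, adjusted p = 0.22).

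Of the ubiquitin ligases and other induced proteins, Trim30a, which restrains inflammatory signalling in mice, was at 10.74, 10.29, 9.93 and 10.22 in WT and at 10.07, 10.23, 11.31 and 11.53 in CKO. CKO1 and CKO2 fell within the WT range and the other CKO samples above it (difference 0.49, adjusted p = 0.458). Ifi35 was at 7.92 to 8.27 in WT and at 8.14, 7.90, 8.55 and 8.52 in CKO (difference 0.17, adjusted p = 0.613). Rtp4, a chaperone of receptors, was dim at 5.68 to 6.32.

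Of the GTPases, which interferon gamma induces, no member passed. Of 6 members, 5 were tested. Ifi47 was bright, at 11.57, 11.48, 11.36 and 11.32 in WT and at 10.66, 11.34, 11.45 and 11.66 in CKO, with CKO1 the lowest of all (difference -0.15, 95% interval -0.57 to 0.26). Igtp was at 10.41, 10.82, 10.05 and 10.56 in WT and at 10.74, 10.88, 10.67 and 10.99 in CKO (difference 0.36, adjusted p = 0.224). Gbp2 lay between 6.66 and 7.05 in WT and between 6.45 and 6.94 in CKO, lower in CKO in each same-numbered pair by 0.03 to 0.23 (adjusted p = 0.647). Gbp3 and Irgm1 had differences of 0.18 and 0.33. Relative to the WT mean, the median of the 5 GTPases was -0.05, 0.12, 0.11 and 0.53 in CKO1 to CKO4. For none of them were CKO3 and CKO4 the 2 highest arrays, a pattern found in 7.55% of all genes tested. CKO4 alone was the highest array for Ifi47, Gbp3, Igtp and Irgm1, while Gbp2 lay below its WT range there. Iigp1 was dim. The 7 dim members together ranged from 5.54 to 6.37, and none of them had a group mean above the level tested.

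Promoters of the members were searched because many members were highest in CKO3 and CKO4 and because the response element is the sequence through which type I interferon acts. RefSeq promoter windows of assembly GRCm38.p6, from 250 bases before to 50 after the start, were at hand for 29 of the 38 genes. The core of the response element was searched on both strands as GAAA, any 2 bases and GAAA again. It was present in 16 of the 29 genes, or 55.2%, against 3.99% of 27025 genes with a window. The members were listed as genes that interferon induces, so this excess follows from the choice of list and says nothing about CKO samples. Among the 14 genes highest in CKO3 and CKO4, 13 had a window and 9 of these held the core, and among the other members tested 5 of 10 did. Usp18, the member with the largest difference, had no window and was not searched. A Blimp-1 type motif, AGNGAAAG, was found in 3 of the 29 genes, Gbp2, Gbp3 and Stat2, or 10.3% against 9.91% of all genes. A STAT dimer site, TTCNNNGAA, was found in 11 of the 29, or 37.9% against 9.55%, and Ifnar1 and Ifnar2 were among them. These motifs can overlap one another. A match is a description of the letters and not a bound site.

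The 200 bases before the start are shown for 5 genes, with the core in capitals on either strand. Isg15, Ifit3, Rsad2 and Bst2 were all highest in CKO3 and CKO4, and Irgm1 is a GTPase that was not. In Isg15 3 overlapping cores form 1 run that begins 78 bases before the start, in Bst2 2 overlapping cores begin 130 bases before it, and in Irgm1 2 overlapping cores begin 30 bases before it. Ifit3 has 2 separate cores and Rsad2 has 1, all read on the opposite strand.
Isg15, chr4:156200819-156201018, minus strand: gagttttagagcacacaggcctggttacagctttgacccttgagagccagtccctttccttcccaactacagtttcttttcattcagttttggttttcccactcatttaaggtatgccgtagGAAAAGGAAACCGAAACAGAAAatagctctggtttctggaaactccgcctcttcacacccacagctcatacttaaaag
Ifit3, chr19:34583329-34583528, plus strand: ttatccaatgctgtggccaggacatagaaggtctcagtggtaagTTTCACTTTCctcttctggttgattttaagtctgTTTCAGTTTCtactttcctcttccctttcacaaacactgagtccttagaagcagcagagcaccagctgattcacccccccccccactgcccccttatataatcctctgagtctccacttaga
Rsad2, chr12:26456453-26456652, minus strand: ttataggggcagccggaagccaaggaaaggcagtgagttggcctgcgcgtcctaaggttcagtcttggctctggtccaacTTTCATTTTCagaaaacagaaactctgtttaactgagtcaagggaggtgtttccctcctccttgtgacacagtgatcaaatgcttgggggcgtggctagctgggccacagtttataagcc
Bst2, chr8:71537473-71537672, minus strand: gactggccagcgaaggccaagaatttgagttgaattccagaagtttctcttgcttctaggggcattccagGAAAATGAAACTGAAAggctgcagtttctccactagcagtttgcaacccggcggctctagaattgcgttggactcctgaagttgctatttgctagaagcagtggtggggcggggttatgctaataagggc
Irgm1, chr11:48871421-48871620, minus strand: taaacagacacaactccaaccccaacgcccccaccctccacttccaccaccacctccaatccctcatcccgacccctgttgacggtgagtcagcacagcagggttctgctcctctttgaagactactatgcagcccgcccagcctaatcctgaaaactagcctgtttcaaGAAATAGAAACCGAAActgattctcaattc

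**Figure D5:**
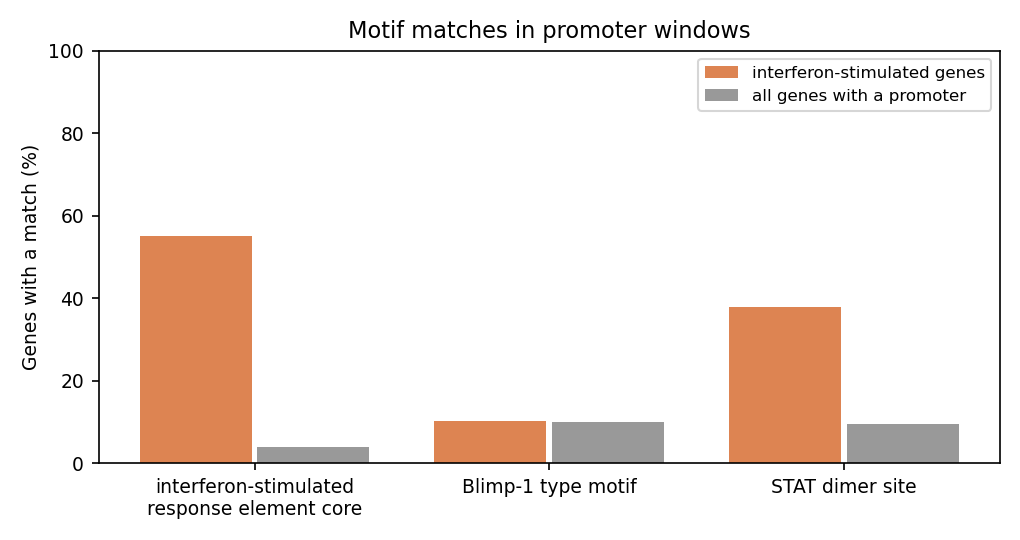
Share of genes with at least 1 match in their promoter windows, for the 29 interferon-stimulated genes and the 27025 genes with a window in RefSeq. The share for the response element core is 55.2% against 3.99%, an excess that follows from listing genes that interferon induces. For the Blimp-1 type motif it is 10.3% against 9.91%.

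Other components of the pathway were read beside the members. Of 28 listed ligands, receptors, kinases, transcription factors, inhibitors and adaptors, 26 had a probe and 23 were tested, of which 1 was higher and 1 lower in CKO, against 4.73% and 3.04% of all genes tested, with a median of 0.07 log2. Socs3, an inhibitor of cytokine receptors, rose from 7.76 to 7.92 in WT to 8.51 to 8.96 in CKO, by 0.93 log2 (SE 0.12, limma adjusted p = 0.00215). Ifng, interferon gamma itself, fell by 0.73 (SE 0.19, adjusted p = 0.0455), from 8.86, 9.12, 9.29 and 9.39 to 8.03, 8.43, 8.36 and 8.94, a call that held without CKO4 but not without any other single sample (adjusted p = 0.0518 to 0.135), nor without the level filter (0.0503). CKO3 and CKO4 were the 2 highest arrays for 7 of the 23 genes, against 7.55% of all genes tested. These included Irf7, the factor that amplifies interferon production, at 8.10 to 8.84 in WT and 7.75, 7.99, 9.02 and 9.33 in CKO, and Irf9, the DNA-binding partner of Stat2, at 8.73 to 9.08 in WT and 9.11, 8.89, 9.30 and 9.66 in CKO, neither past the threshold (adjusted p = 0.921 and 0.195). The interferon beta gene Ifnb1 was dim, at 5.82 to 6.09. With the replicate number as a block, the kinases Jak1 and Tyk2, which sit on the receptor, were also lower, at -0.53 and -0.45 (limma adjusted p = 0.00926 and 0.0231). So was Pias1, a SUMO ligase, at -0.32 (0.0491), and the inhibitor Socs1 was higher, at 0.42 (0.0362).

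Of 55 further interferon-induced genes, 48 had a probe and 39 were tested, of which 4 were higher and 2 lower, against 4.73% and 3.04% of all genes tested, with a median of 0.25 log2. CKO3 and CKO4 were the 2 highest arrays for 14 of the 39, against 7.55%. Cxcl10, a chemokine that draws T cells, was at 6.001 to 6.33 in WT, near the level of dim probes, and at 7.48, 7.55, 9.02 and 9.21 in CKO, so its rise of 2.14 (SE 0.37, limma adjusted p = 0.00805) may be understated. Cmpk2, a mitochondrial nucleotide kinase that lies beside Rsad2 in the genome, was at 7.79, 7.81, 7.53 and 7.69 in WT and at 8.73, 8.67, 9.29 and 9.25 in CKO. It rose by 1.28 or 2.43-fold (SE 0.16, adjusted p = 0.00164) with no overlap, unlike its neighbour. Ifi27l2a was at 12.29 to 12.40 in WT and at 12.64, 13.33, 14.08 and 14.35 in CKO, a rise of 1.25 (SE 0.31, adjusted p = 0.0378) that did not pass without CKO3 or CKO4 (adjusted p = 0.126 and 0.0784) or without any single WT sample (0.0667 to 0.092). Ly6e, a surface protein, rose by 0.43 (adjusted p = 0.0488), a call that did not hold without WT1, WT2, WT3, CKO2, CKO3 or CKO4 (0.0762 to 0.148). Epsti1 fell by 0.70 and Ly6c1, a surface protein of activated CD8 T cells, by 0.53 (adjusted p = 0.0121 and 0.0104). With the block, Oas1g was also higher, at 0.91 (limma adjusted p = 0.0379), and Gbp7 and Ms4a4b were lower, at -0.53 and -0.61 (0.00926 and 0.026).

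Markers of other cells were read beside these results, since a sorted sample can hold other cells. In sorted bulk samples, fewer cells of a type and less RNA per cell cannot be told apart. Of 9 macrophage and monocyte markers, 6 had a probe and 4 were tested, with no call. Their summed linear signal was 1759 to 2291 in WT and 2007, 2144, 2647 and 5053 in CKO1 to CKO4, so it was highest in CKO3 and CKO4, and its part in the result was not tested. Lyz2, a lysozyme of myeloid cells, was at 6.45, 6.73, 8.87 and 8.75 in WT and at 6.56, 6.98, 8.47 and 10.30 in CKO. Ctss, a protease of antigen-presenting cells, was the 1 marker of this list with CKO3 and CKO4 highest, at 10.95 and 11.61 against 9.998 to 10.76 elsewhere, and all CKO samples were above all WT samples (difference 0.69, adjusted p = 0.0766). Adgre1, a surface receptor of macrophages, was at 8.74 in CKO4 and at 6.66 to 7.81 on every other array. Fcgr1, an antibody receptor of myeloid cells, was also highest in CKO4, at 6.51 against 6.04 to 6.26 elsewhere. In CKO3, Lyz2, Adgre1 and Fcgr1 lay within their WT ranges, and the summed signal is weighted to Ctss, the brightest marker of the list. Cd14 and Itgam, markers of monocytes, had mean signals below the level tested, with single values of 5.62 to 6.28. Cd14 was highest in CKO4, at 6.21, and Itgam in WT3, at 6.28.

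Erythroid markers set CKO1 apart from the other CKO samples and placed it with the WT samples. Hba-a1, an alpha globin, was at 13.28, 13.68, 12.33 and 12.08 in WT and at 13.68, 8.29, 6.60 and 7.67 in CKO. The summed signal of the 3 erythroid markers with a probe was 4579 to 14000 in WT and 13848 in CKO1. In CKO2 to CKO4 it was 234.3 to 447.0, below every WT sample. CKO1 was also the CKO sample in which the fewest interferon-stimulated genes lay above the WT range, and the part of these cells in that was not tested. Of 7 dendritic cell markers, 3 were tested with no call, and their summed signal was 1222 to 3065 in WT and 1083 to 1454 in CKO. Of the 6 B cell markers 3 were tested with no call and sums of 462.8 to 793.8 in WT and 425.1 to 498.1 in CKO. Of 7 neutrophil markers 4 were tested, of which Camp was lower in CKO (limma adjusted p = 0.00345), with sums of 792.8 to 2101 in WT and 682.3 to 1059 in CKO. The NK and CD4 T cell lists had 1 tested marker each, with no call, sums in CKO of 231.0 to 279.3 and 253.9 to 266.9, and in WT of 280.7 to 1161 and 268.9 to 305.0. The NK sum is weighted to Klrb1c, at 9.95, 9.91, 6.72 and 8.04 in WT1 to WT4 and 6.63 to 6.77 in CKO. Of 7 T cell markers tested, Cd2 and Thy1 were lower in CKO (adjusted p = 0.00857 and 0.0326). The sums were 81809 to 89124 in WT and 71609, 77382, 65211 and 69092 in CKO1 to CKO4. The T cell sum was thus lowest in CKO3 and CKO4, and its part in the result was not tested. With the block, Cd3e, Itgax of the dendritic list, Klrb1c of the NK list and Hba-a1 were also lower in CKO, at -0.38, -1.21, -1.96 and -3.78 (limma adjusted p = 0.0283, 0.024, 0.0283 and 0.025).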

How the data were processed

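RNA of 8 sorted samples was amplified, labelled with biotin and hybridised to 1-colour arrays, as the labels' protocols say. The deposited table holds 24048 probes with 1 log2 value per array, normalized between arrays by the authors, as the near-identical distribution of the columns shows. For scanning, background correction and normalization, no method is given in the sources used here. A platform annotation from GEO named 19397 probes with 1 gene symbol each and left 4651 without, and symbols were brought up to date by gene identifier with RefSeq (GRCm38.p6).

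Groups follow the sample titles. The values were used as deposited. The comparison used limma 3.58.1 (lmFit, eBayes) under R 4.3.3, two-sided, over 11991 probes with a mean above 6.12, and 5 missing values were left out. Standard errors (SE) and 95% intervals are limma's moderated ones. The fit was tested on simulated data. Groups share replicate numbers. Across probes, same-numbered samples deviated together from their groups (r = 0.318, 0.468, 0.178 and 0.224). Each exceeded 0.1, so numbers were taken as pairs and blocked values stand beside calls they alter, although r was also 0.254 between WT3 and CKO4 and 0.263 between WT4 and CKO3. Precision is limited by having 4 arrays a group.

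Every member was accounted for. Array values were given for members past the threshold, for the 1 or 2 brightest of each role and for those whose groups did not overlap, and other genes given in full were chosen after their values were seen (Oas3, Gbp2, Ifih1, Zbp1, Stat2, Irf7, Irf9, Lyz2, Adgre1, Fcgr1, Ctss, Hba-a1). The members and lists were chosen with earlier results of these data known. Alternatives were further normalization, filters, probe summaries, scales, variance settings, the block and left-out samples.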

Additional observations from a re-analysis of the deposited data

Results flagged for a closer look

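In 62 groups of 4 samples, 5 single values lay far from the other values of their group by Dixon's ratio at its 95% critical value. Chance gives about 1 in 20 such groups. Bst2 in CKO1 was at 10.18, with the nearest CKO sample at 11.18. This was the 1 member of these with signal well above the level of dim probes. The others were dim members: Oasl2 in WT4 at 5.97, Oas1a in WT2 at 5.66, Oas2 in CKO4 at 6.37 and Dhx58 in CKO2 at 5.85.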

How the results depend on the processing

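Over 19 alternatives, 10 of 25 members kept the same call and 14 the same sign in each one in which they were tested. All 10 were members that did not pass, and neither Usp18 nor Ifnar2 was among them. Ifnar1, 1 of the 10, was tested in 18, since it lay below the stricter filter. No member was lower in any of them. The count of members higher was 2, and it became 4 with the replicate block, 1 with CKO3 and CKO4 left out, 0 in samples numbered 1 and 2 alone and 15 in samples numbered 3 and 4 alone. Leaving out 1 sample at a time gave 2 to 5, the highest without CKO1. The median difference over the members, 0.36, turned to -0.0147 with CKO3 and CKO4 left out and to -0.0509 in samples 1 and 2 alone, was 0.70 in samples 3 and 4 alone, and ranged from 0.14 (without CKO4) to 0.56 with 1 sample left out. The causes were not tested, and the splits by sample number were chosen with the pattern known. Of all genes, 383 were higher and 246 lower. These counts were 84 and 35 with CKO3 and CKO4 left out, and 11 and 8 in samples 1 and 2 alone. Fewer samples were fitted in both, but samples 3 and 4 alone, also 2 a group, gave 516 higher and 407 lower. With the replicate block the counts were 556 and 461. With 1 sample left out they ranged from 190 (without CKO3) to 419 higher and from 101 to 340 lower.

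Usp18 passed in every alternative but samples 1 and 2 alone, where it was at 0.89 (limma adjusted p = 0.269), and Ifnar2 in every one but that (0.63, adjusted p = 0.288) and with CKO3 and CKO4 left out. The block changed no other member's call than those of Oas3 and Eif2ak2. Usp18 was at 1.42 with 50 added to the linear value and at 1.64 with each array's lowest value subtracted and 16 added, and neither scale changed a member's call. Among pathway genes, the calls of Ifng and Ly6e were lost with the lowest value subtracted (adjusted p = 0.0559 and 0.0747) and without the level filter (0.0503 and 0.051). That of Ifi27l2a was lost with trend and robust settings (0.0865). With CKO3 and CKO4 left out, Ifng, Ly6e and Ifi27l2a did not pass (0.0553, 0.334 and 0.175). Alternatives for pathway genes were added after the data were seen.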
